A study of Mus musculus with 2 samples.

Results

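The 10 genes described here are markers of macrophages as used in studies of the heart: Csf1r, Cx3cr1, Emr1, Mrc1, C1qa, C1qb, C1qc, Lyz2, Tyrobp and Lyve1. They were chosen by name, and all 10 were found among the 34236 gene symbols of the deposited tables, each with 1 row. The RNA came from mouse heart at embryonic day 12.5 and was sequenced as 2 libraries, replicate 1 and replicate 2. The embryos were of a mixed C57BL/6 x 129S6 background and received no treatment. Both libraries form 1 group, so levels and their spread are given and no conditions were compared. Whether the libraries came from separate embryos, pools or litters is not given in the sources used here, so their spread may be technical.

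Values are FPKM, the fragments of a gene relative to its transcript length and to the depth of the library, as the authors deposited them. A mean is given ± SD over the 2 libraries (n = 2), and a gene counted as detected when both libraries reached 1 FPKM. Absolute depth is unknown. Replicate 1 was 1.33 times as deep as replicate 2, as read from genes under 0.1 FPKM, where many values stand for single fragments. An exact two-sided sign-flip test over 2 libraries cannot go below p = 0.5, so differences are given without p-values. The tissue label was checked against genes of heart muscle: Actc1, the cardiac alpha actin, stood at 4314 ± 98.4 FPKM and Nkx2-5, a cardiac transcription factor, at 54.1 ± 0.9496 FPKM.

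Macrophages are phagocytes that take up dying cells, matrix and microbes. In the embryo the earliest ones arise from progenitors of the yolk sac and settle in organs, the heart among them, before the bone marrow makes blood. Their growth and survival depend on the receptor CSF1R and its ligands, their identity on the ETS family transcription factor PU.1 (gene Spi1), and their surface carries scavenger and chemokine receptors. The C1q chains, which start the classical complement pathway and tag debris for uptake, are made largely by macrophages.

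Sequence just before the transcription start was available for 5 of the 10 genes in the RefSeq promoter table used here (build GRCm38.p6), namely Mrc1, C1qb, C1qc, Lyz2 and Cx3cr1. The 250 bases before each start are shown because macrophage genes are known targets of ETS factors such as PU.1 and 9 of the 10 members were found between 1 and 5 FPKM. Capitals mark the word AGGAAGT, a core that ETS factors bind, read on either strand (its reverse complement is ACTTCCT).
C1qb (chr4:136886201-136886450, minus strand): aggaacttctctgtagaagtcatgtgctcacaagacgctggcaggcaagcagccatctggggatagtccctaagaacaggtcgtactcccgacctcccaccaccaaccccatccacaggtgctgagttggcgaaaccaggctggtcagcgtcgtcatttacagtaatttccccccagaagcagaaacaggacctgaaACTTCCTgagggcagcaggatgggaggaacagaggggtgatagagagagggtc
C1qc (chr4:136892915-136893164, minus strand): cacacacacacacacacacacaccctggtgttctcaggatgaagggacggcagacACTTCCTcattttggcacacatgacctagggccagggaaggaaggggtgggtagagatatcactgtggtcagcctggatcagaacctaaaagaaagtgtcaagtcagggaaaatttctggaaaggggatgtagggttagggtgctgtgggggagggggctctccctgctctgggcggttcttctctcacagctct
Lyz2 (chr10:117282273-117282522, minus strand): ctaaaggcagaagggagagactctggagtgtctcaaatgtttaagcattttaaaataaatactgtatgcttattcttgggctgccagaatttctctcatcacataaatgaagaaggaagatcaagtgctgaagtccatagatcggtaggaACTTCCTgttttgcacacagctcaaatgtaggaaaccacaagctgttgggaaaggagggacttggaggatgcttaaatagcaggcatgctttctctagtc
Mrc1 (chr2:14229164-14229413, plus strand): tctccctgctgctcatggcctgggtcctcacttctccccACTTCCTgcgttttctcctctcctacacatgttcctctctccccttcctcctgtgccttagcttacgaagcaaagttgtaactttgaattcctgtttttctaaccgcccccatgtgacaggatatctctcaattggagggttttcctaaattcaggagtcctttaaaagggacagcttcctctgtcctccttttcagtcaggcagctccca
Cx3cr1 (chr9:120068297-120068546, minus strand): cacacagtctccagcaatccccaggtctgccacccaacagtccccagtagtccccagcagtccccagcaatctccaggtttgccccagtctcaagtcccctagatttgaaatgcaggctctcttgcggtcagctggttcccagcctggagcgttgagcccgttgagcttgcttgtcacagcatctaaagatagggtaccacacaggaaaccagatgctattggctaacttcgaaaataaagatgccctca

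In 4 of these 5 windows the word was found, each time once and on the strand opposite to the gene. Its first base lay 53 bases before the start in C1qb, 100 in Lyz2, 195 in C1qc and 211 in Mrc1. The Cx3cr1 window held none, which says only that these letters are not in it. Of 32851 RefSeq promoter windows of the same length, 7.69% held the word on either strand. The longer form GAGGAAGT, which contains the shorter word, was found in C1qc alone among the 5 and in 2.44% of all windows, and the TATA word TATAAA was found in none of the 5 and in 12.4% of all. The 3 words were chosen after the sequences had been seen, and a match is not a binding site. Of the factor itself, Spi1 was listed at 1.02 FPKM in replicate 1 and 0.892 FPKM in replicate 2, on either side of the detection limit.

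All 10 markers were detected in both libraries, at a median of 3.39 FPKM. Of all symbols 36.2% were detected, and of protein-coding symbols, as all 10 are, 52.4%. The levels were low for heart RNA as a whole: the median marker lay above 55.6% of the 22757 symbols with a value above 0 in at least 1 library, but above only 19.99% of the 12637 symbols whose mean reached 1 FPKM. The 10 genes summed to 50.2 FPKM in replicate 1 and 45.9 FPKM in replicate 2, which is 0.0129% and 0.0120% of the summed FPKM of each library. Lyz2 alone made up 44.4% and 46.0% of those sums. In RNA of a whole organ, fewer cells of a type and less RNA per cell cannot be told apart.

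**Figure D1:**
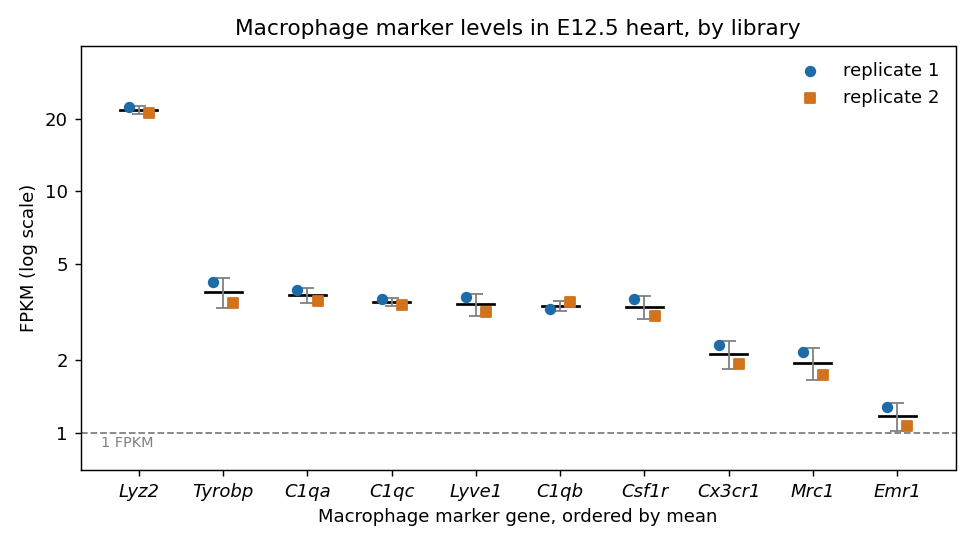
FPKM on a log axis for each of the 10 marker genes, ordered by mean, with circles for replicate 1, squares for replicate 2, black lines for the mean and grey bars for ± SD (n = 2); the dashed line is at 1 FPKM. Lyz2 stands alone near 21.7 FPKM, 6 genes sit between 3.32 and 3.83 FPKM, and Cx3cr1, Mrc1 and Emr1 lie below them.

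The receptors of growth factors and chemokines were at low levels. Csf1r, the receptor tyrosine kinase for the macrophage growth factors CSF1 and IL-34, was at 3.57 FPKM in replicate 1 and 3.06 FPKM in replicate 2 (chromosome 18, 61265226 to 61291803, plus strand, mm9). Cx3cr1, the receptor for the membrane-bound chemokine CX3CL1, was at 2.31 and 1.92 FPKM (chromosome 9, 119957811 to 119977400, minus strand). In both libraries Csf1r was above Cx3cr1, and the libraries of the 2 genes did not overlap. Csf1r shares 871 bases with the oppositely oriented gene Hmgxb3, which was at 7.42 ± 0.249 FPKM. In the GENCODE M21 transcripts, 17.7% of the 50-base words of Csf1r also occur in Hmgxb3. No strand setting is given in the sources used here, so reads of that stretch cannot be told apart. The level of Csf1r and its ratios to other genes are therefore uncertain, by an amount that was not tested.

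Emr1 encodes an adhesion receptor of the EGF-TM7 family, now named Adgre1, whose protein is the classic surface antigen of mouse macrophages. It was the lowest member, at 1.28 FPKM in replicate 1 and 1.06 FPKM in replicate 2 (chromosome 17, 57498109 to 57622952, plus strand). Both values lay just above the detection limit, and Emr1 ranked last in both libraries.

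Of the endocytic receptors, Mrc1, the mannose receptor that takes up glycoproteins, was at 2.16 and 1.74 FPKM in replicates 1 and 2 (chromosome 2, 14151041 to 14253684, plus strand). Lyve1, a hyaluronan receptor of lymphatic endothelium and of a class of resident macrophages, was at 3.66 and 3.16 FPKM (chromosome 7, 117994121 to 118006467, minus strand). Lyve1 was above Mrc1 in each library, and their values did not overlap. Their log2 ratio of (FPKM + 1) was 0.58 ± 0.03. It was past 0.32, the size below which 95% of genes whose mean reached 1 FPKM differed between replicates. But it was under 0.60, the same size for genes between 1 and 5 FPKM, a limit added after the data were seen.

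Tyrobp, a short membrane adaptor with an ITAM motif that passes signals from receptors such as TREM2 to the kinase SYK, was at 4.21 and 3.45 FPKM (chromosome 7, 31198807 to 31202596, plus strand). Its place among the 10 was number 2 in replicate 1 and number 4 in replicate 2. Its GENCODE transcript, at 597 bases, is the shortest of the 10. As FPKM times transcript length, a relative measure of the fragments behind a value, Tyrobp had 8.57% of the amount of Lyz2 in replicate 1 and 7.40% in replicate 2, the smallest of all members, against 57.3% and 51.7% for Csf1r, the next after Lyz2. The lengths are those of GENCODE M21 and not of the annotation the authors used.

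The 3 chains of C1q were at nearly one level. C1qa was at 3.91 FPKM in replicate 1 and 3.52 FPKM in replicate 2, C1qb at 3.25 and 3.48 FPKM and C1qc at 3.59 and 3.39 FPKM. The highest chain was 1.205 times the lowest in replicate 1 and 1.04 times in replicate 2, and the order of the chains was not the same in the libraries. The mature protein is assembled from the A, B and C chains in equal numbers. The genes lie side by side on the minus strand of chromosome 4, C1qb at 136436044 to 136442102, C1qc at 136445719 to 136448980 and C1qa at 136451832 to 136454718 (mm9), within 18675 bases. The nearest protein-coding genes outside them were Ephb2, an ephrin receptor, at 2.89 ± 0.427 FPKM and Epha8, another, at 0.166 ± 0.00502 FPKM. None of the 50-base words of the C1q transcripts occurred in a transcript of another gene.

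Lyz2, the lysozyme of macrophages and other myeloid cells, was the highest member at 22.3 FPKM in replicate 1 and 21.1 FPKM in replicate 2 (chromosome 10, 116714390 to 116719377, minus strand). It was 5.29 times the next member in replicate 1 and 6.01 times in replicate 2. Its neighbour Lyz1, the lysozyme known from Paneth cells of the gut, lies 5475 bases away on the same strand and was at 4.41 and 4.10 FPKM. The transcripts of the pair share sequence: 15.4% of the 50-base words of Lyz2 occur in Lyz1, and 16.1% of those of Lyz1 in Lyz2. How reads with several matches were handled is not given in the sources used here, so the split between Lyz2 and Lyz1 is uncertain.

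The levels fall into steps only in part. Neighbours in the order were said to differ when their log2 ratio of (FPKM + 1) had the same sign in both libraries and its mean exceeded 0.32. That limit is the size below which 95% of genes whose mean reached 1 FPKM differed between replicates 1 and 2. It holds the spread between libraries only. An error in the FPKM of a gene that both libraries share is not covered by it. By this rule 3 of the 9 neighbouring pairs differed: Lyz2 over Tyrobp (log2 ratio 2.24 ± 0.11), Csf1r over Cx3cr1 (0.47 ± 0.01) and Mrc1 over Emr1 (0.44 ± 0.04). Genes at a mean of 1 to 5 FPKM, where 9 of the 10 members lie, varied more between the libraries, 95% of them by less than 0.60. Against that limit, added after the data were seen, Lyz2 over Tyrobp was the 1 step that was left. This larger limit comes from symbols of every gene type. Their differences, replicate 2 minus replicate 1, reached further up than down. The central 95% ran from -0.38 to 0.81 at 1 to 2 FPKM and from -0.29 to 0.71 at 2 to 5 FPKM. Tyrobp, C1qa, C1qc, Lyve1, C1qb and Csf1r formed a run between 3.32 and 3.83 FPKM in which none of the 15 pairs passed the smaller limit, the largest log2 ratio being 0.16. Of all 45 pairs of members, 29 passed the smaller limit and 19 the larger one. The share of all gene pairs past either limit was not counted, so these counts are not a result about the members.

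Between the libraries the members differed little. No member was 2-fold or more apart, against 0.736% of the 12637 genes whose mean reached 1 FPKM. The SD was between 3.71% of the mean, for Lyz2, and 15.4%, for Mrc1. Values were lower in replicate 2 for 9 of the 10 members, C1qb being higher there, and 66.6% of those 12637 genes were lower in replicate 2. The median log2 difference, replicate 2 minus replicate 1, was -0.16 over the members and -0.04 over the same genes. The difference was -0.23 for Tyrobp, -0.21 for Mrc1, -0.18 for Cx3cr1 and 0.08 for C1qb. Each of the 10 lay inside the central 95% of single genes of its level, which ran from -0.29 to 0.71 at 2 to 5 FPKM. Among the megakaryocyte genes all 5 whose mean reached 1 FPKM were lower in replicate 2, at a median of -0.44, with Pf4, a platelet chemokine gene, at 13.9 and 11.6 FPKM. Other cell-type lists went both ways, counted among genes whose mean reached 1 FPKM. Lower in replicate 2 were 4 of 4 resident macrophage genes (median -0.21) and 11 of 15 other macrophage genes (median -0.03). So were 6 of 8 lymphatic endothelial and 9 of 11 blood endothelial genes. Fewer were lower in other lists: 0 of 2 monocyte genes, 1 of 3 MHC class II and dendritic cell genes, 1 of 3 blood progenitor genes and 2 of 5 microglia genes. Replicate 1 was also the deeper library. The part of depth and of other blood cells in the members' difference was not tested.

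**Figure D2:**
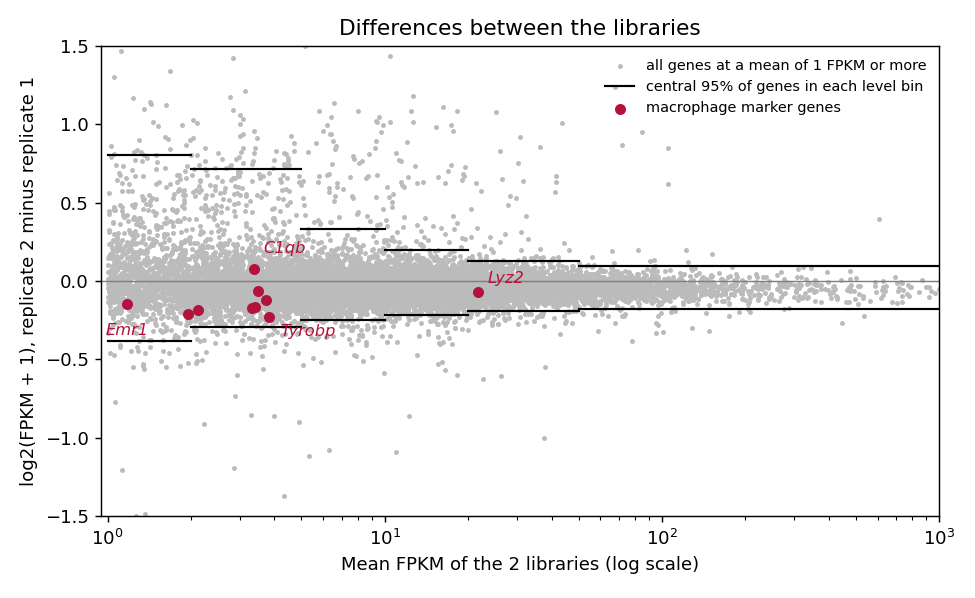
Difference in log2(FPKM + 1), replicate 2 minus replicate 1, against the mean FPKM on a log axis, for the 12637 genes whose mean reached 1 FPKM (grey) and the 10 markers (red); black lines bound the central 95% of genes in each level bin, and 73 genes lie outside the axes. All markers sit between the lines, and 9 of the 10 lie below 0.

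Levels of other genes of each member's pathway were also read. Each member or partner was set against a related gene in 24 pairs. In 2 of them a gene was listed at 0 in a library, Elane in both and Cd163 in replicate 2, and no ratio is given. Of the other 22 pairs, 16 had a log2 ratio of (FPKM + 1) past 0.32 in 1 direction. The share of all gene pairs past that limit was not counted, so 16 of 22 is not a result about these pathways.

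Both ligands of CSF1R were looked at. Csf1 was at 5.37 FPKM in replicate 1 and 5.71 FPKM in replicate 2, above its receptor (log2 ratio of Csf1r to Csf1 -0.60 ± 0.17). Il34 was at 0.136 and 0.377 FPKM, below the detection limit in both, and lower than Csf1 (Csf1 over Il34 2.39 ± 0.14, and 4.07 with a pseudocount of 0.1 FPKM). Csf1r was near Kit, the related receptor of blood progenitors, mast cells and germ cells, at 3.61 and 2.95 FPKM (0.01 ± 0.04). It was lower than its neighbour on the chromosome and relative in sequence Pdgfrb, the receptor of pericytes and mural cells, at 10.6 and 9.82 FPKM (-1.38 ± 0.05). Among the related receptor kinases listed, Flt3 was the lowest at 0.0120 ± 0.00600 FPKM and Pdgfra the highest at 15.7 ± 1.11 FPKM.

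Cx3cr1 and its ligand gene Cx3cl1 were close, the ligand being at 2.80 and 2.91 FPKM (log2 ratio -0.31 ± 0.16, just inside the limit of 0.32). Adam10, a protease that sheds the ligand from the membrane, was at 55.8 ± 2.98 FPKM and Adam17, another, at 14.4 ± 0.168 FPKM. Ccr2, the chemokine receptor of monocytes recruited from blood, was at 0.0266 and 0.0128 FPKM, so Cx3cr1 was above it in both libraries (1.61 ± 0.12, and 4.21 with a pseudocount of 0.1 FPKM in place of 1).

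Of the 15 genes listed for the classical pathway and partners of C1q, 6 were detected, beside 52.4% of all protein-coding symbols. The proteases of the C1 complex were not among the 6. C1ra and C1s, these proteases, were at 0.0569 ± 0.0330 and 0.0525 ± 0.0167 FPKM, and C1qa was above C1ra (log2 ratio 2.16 ± 0.04, and 4.62 with the smaller pseudocount). C1rb was at 0.0106 ± 0.00303 FPKM, and C5, the start of the terminal pathway, at 0.00581 ± 0.00124 FPKM. The 4 highest of the list were the chaperone gene Calr at 304.6 ± 8.16 FPKM, C1qbp, a mostly mitochondrial protein that can bind C1q, at 111.7 ± 0.108 FPKM, the endothelial receptor gene Cd93 at 24.9 ± 0.990 FPKM and Serping1, the C1 inhibitor, at 10.3 ± 0.277 FPKM.

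The adaptor Tyrobp was compared with its receptors and relatives. Trem2, a phagocytic receptor that signals through it, was at 0.913 and 0.899 FPKM, below Tyrobp (log2 ratio 1.34 ± 0.15, and 1.96 with the smaller pseudocount). Fcer1g, the adaptor of Fc receptors, was at 3.65 and 4.35 FPKM, and its ratio to Tyrobp changed sign between the libraries (-0.05 ± 0.30). Hcst, an adaptor gene on the other strand whose end lies 136 bases from the end of Tyrobp, was at 0.168 and 0.0717 FPKM (2.11 ± 0.07, and 4.19 with the smaller pseudocount). The kinase Syk was at 6.29 ± 0.126 FPKM, and its T cell relative Zap70 at 0.104 ± 0.0248 FPKM. Of the 11 genes of this list, Fcer1g and Syk alone were detected, beside 52.4% of all protein-coding symbols.

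The surface receptors had relatives both above and below them. Mrc2, a collagen receptor of mesenchymal cells in the mannose receptor family, was at 9.54 and 8.64 FPKM (Mrc1 over Mrc2 -1.78 ± 0.06). Cd44, a widely expressed hyaluronan receptor, was at 15.3 and 15.2 FPKM (Lyve1 over Cd44 -1.89 ± 0.11). Cd97, an EGF-TM7 receptor of many cell types, was at 10.1 and 9.91 FPKM (Emr1 over Cd97 -2.34 ± 0.08, and -2.99 with a pseudocount of 0.1 FPKM). Stab2, a hyaluronan receptor of sinusoidal endothelium, was at 0.123 and 0.190 FPKM, below Lyve1 (1.93 ± 0.18, and 3.78 with a pseudocount of 0.1 FPKM). Other relatives went both ways by mean. Hmmr, at 18.2 ± 1.25 FPKM, was above Lyve1, and Eltd1, at 3.93 ± 0.257 FPKM, was above Emr1. Pla2r1 at 1.11 ± 0.249 and Ly75 at 0.622 ± 0.117 FPKM were below Mrc1, and Emr4 at 0.0198 ± 0.000417 FPKM was below Emr1. Layn, at 2.75 ± 0.244 FPKM, was below Lyve1. In replicates 1 and 2 Layn was at 2.58 and 2.92 FPKM, where Lyve1 was at 3.66 and 3.16 FPKM. No log2 ratio was taken for these other relatives, so whether they passed the limit for a difference was not tested.

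**Figure D3:**
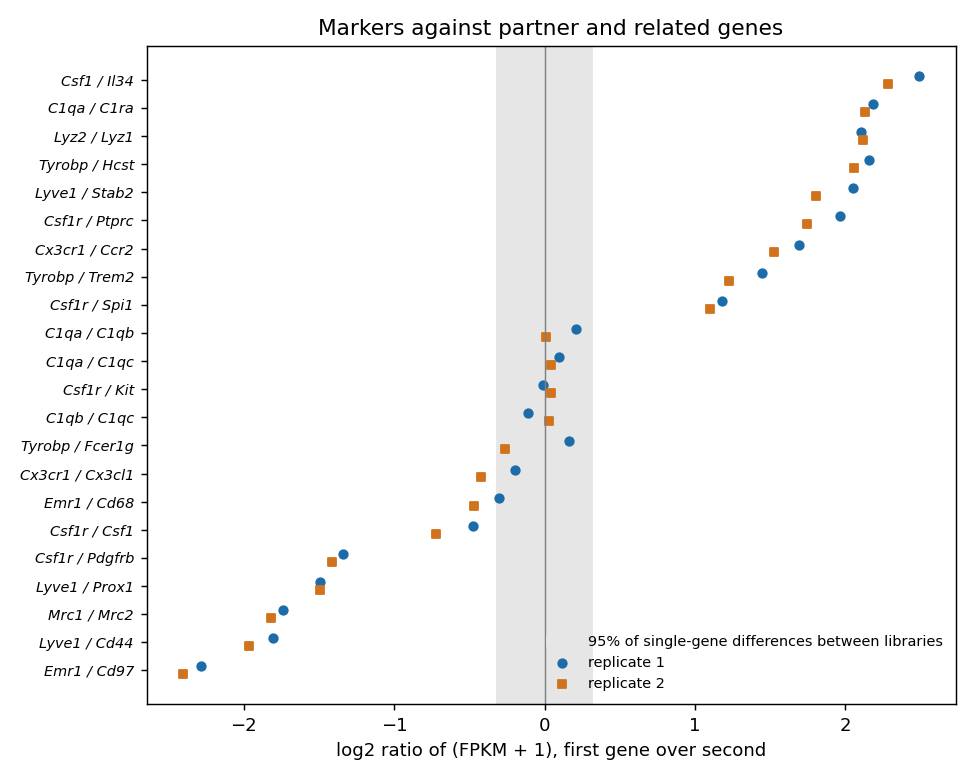
Log2 ratio of (FPKM + 1), first gene over second, in replicate 1 (circles) and replicate 2 (squares) for the 22 pairs without a gene listed at 0; the grey band spans 0.32 in either direction. The C1q chains, Csf1r with Kit, Tyrobp with Fcer1g and Cx3cr1 with Cx3cl1 have their means in the band, and the other 16 pairs have theirs outside it, Emr1 with Cd68 lying inside it in replicate 1.

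The label was checked against 27 other genes known from macrophages, of which 13 were detected, at a median of 1.02 FPKM. Beside this and the counts of the lists that follow stands the share of 52.4% over all protein-coding symbols, so a count near it is not a result about a list. The highest were Lcp1, an actin-bundling protein of blood cells, at 12.9 ± 0.581 FPKM, the lysosomal membrane gene Laptm5 at 5.72 ± 0.114, the growth factor receptor gene Csf2ra at 5.70 ± 0.0812 and the transcription factor Maf at 3.67 ± 0.0563 FPKM. Cd68, a lysosomal glycoprotein of phagocytes, was at 1.82 and 1.86 FPKM, above Emr1 (log2 ratio of Emr1 to Cd68 -0.39 ± 0.12, with -0.30 in replicate 1 alone, inside the limit, and -0.61 with the smaller pseudocount). Among the lowest were Ptprc, the common antigen of white blood cells, at 0.172 and 0.209 FPKM and the Fc receptor gene Fcgr2b at 0.155 ± 0.0136 FPKM. Csf1r was above Ptprc in both libraries (1.86 ± 0.15, and 3.55 with a pseudocount of 0.1 FPKM) and above Spi1 (1.14 ± 0.05, and 1.69).

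Of 11 genes linked to resident macrophages 4 were detected, at a list median of 0.405 FPKM. Gas6, a bridging ligand between dying cells and phagocytes, was at 20.2 ± 1.05 FPKM, the growth factor gene Igf1 at 20.1 ± 0.404, the scavenger receptor gene Stab1 at 9.78 ± 1.83 and F13a1, a transglutaminase gene, at 1.91 ± 0.448 FPKM. Igf1, Gas6 and Stab1 are also made by other cells of the heart, and which cells gave the F13a1 RNA was not tested. Cd163, a haemoglobin scavenger receptor, was at 0.00593 FPKM in replicate 1 and listed at 0 in replicate 2, where Mrc1 was at 1.74 FPKM. Of 8 genes known from microglia, the macrophages of the brain, 5 were detected, including the transcription factor Sall1 at 6.41 ± 0.0201 FPKM, which other tissues express too.

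Genes of other white blood cells that share markers with macrophages were mostly under the limit. The neutrophil list had 0 of 12 detected, with a sum of 1.74 FPKM in replicate 1 and 1.69 FPKM in replicate 2, and Elane and Ly6g were listed at 0 in both libraries, where Lyz2 was at 22.3 and 21.1 FPKM. Its highest gene was Prtn3, a granule protease, at 0.616 ± 0.138 FPKM. Of 7 monocyte genes 2 were detected, Plac8 at 3.53 ± 0.652 and S100a4 at 1.601 ± 0.166 FPKM, while Ly6c2, which defines monocytes fresh from blood, was at 0.0291 ± 0.00586 FPKM. The list of MHC class II and dendritic cell genes had 3 of 11 detected, the transcription factors Zbtb46 at 3.80 ± 0.0674 and Batf3 at 1.32 ± 0.281 and the class II loading gene H2-DMa at 1.48 ± 0.508 FPKM, while H2-Aa, a class II chain, was at 0.0662 ± 0.0667 FPKM. Zbtb46 is also known from endothelium. Lymphocyte genes had 0 of 8 detected, though Lck, the highest, was on either side of the limit at 0.994 and 1.02 FPKM in replicates 1 and 2. Mast cell genes had 1 of 7 detected, Hdc, a histamine-forming enzyme gene, at 1.42 ± 0.0426 FPKM.

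Endothelial lists had higher medians than the 10 markers. The lymphatic endothelial list had 8 of 9 detected at a median of 7.04 FPKM, with Prox1, the lymphatic regulator that heart muscle also expresses, at 12.1 and 10.7 FPKM, Flt4 at 3.86 ± 0.372 and Ccl21a listed at 0. Lyve1 was lower than Prox1 in each library (log2 ratio -1.49 ± 0.00077). The blood endothelial list had 11 of 11 detected at a median of 30.7 FPKM. The summed lymphatic endothelial list was 68.4 FPKM in replicate 1 and 64.5 FPKM in replicate 2. Its highest genes were Nr2f2 at 17.6 ± 0.359, Prox1, Itga9 at 11.0 ± 0.142 and Pdpn at 9.90 ± 0.0587 FPKM. Its lowest detected gene was Reln at 1.25 ± 0.312 FPKM. The part of lymphatic endothelium in the level of Lyve1 was not tested.

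**Figure D4:**
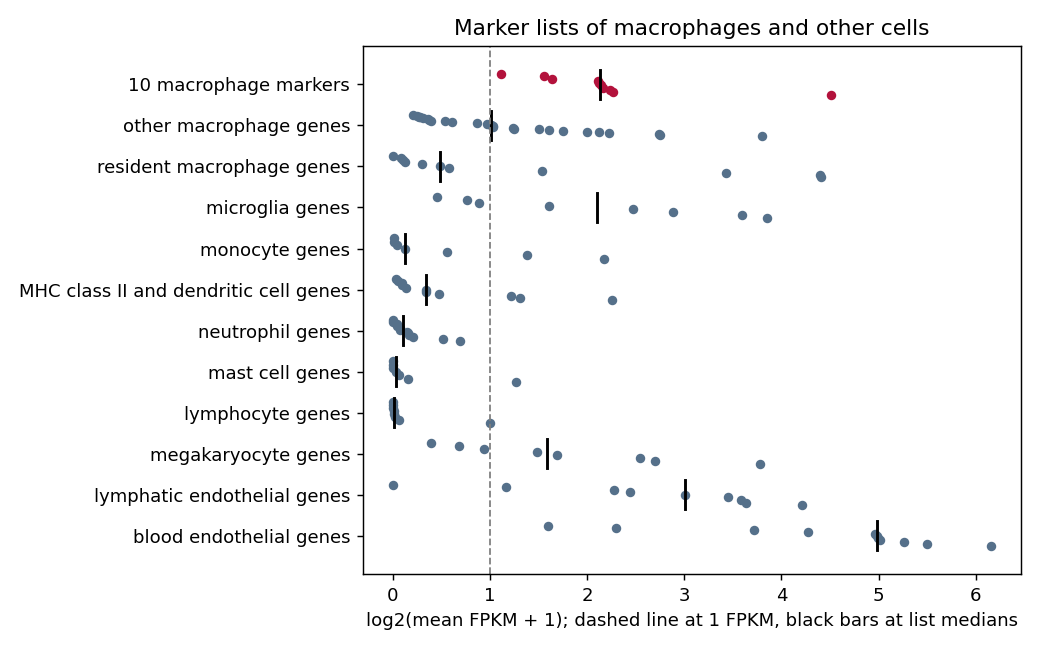
Log2(mean FPKM + 1) of the 10 markers (red) and of genes listed for related and other cell types (blue), 1 point per gene, with list medians as black bars and a dashed line at 1 FPKM. All 10 markers lie right of the line, neutrophil genes all lie left of it, and the blood endothelial median of 30.7 FPKM is the highest of those drawn.

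The protein-coding genes nearest to the markers on the chromosome, other members left out, ranged from being listed at 0 to 23.4 FPKM. Vav1, a signalling gene of blood cells next to Emr1, was at 0.525 ± 0.00960 FPKM, and Vmn2r120, a pheromone receptor gene on its other side, was listed at 0. Xirp1, a gene of heart muscle next to Cx3cr1, was at 23.4 ± 1.61 FPKM, and Ccr8, a chemokine receptor gene on its other side, at 0.00785 ± 0.0111 FPKM. Mrc1 lay between Fam23a at 0.0663 ± 0.00895 and Slc39a12, a zinc transporter gene, at 0.0188 ± 0.00580 FPKM. Lyve1 lay between Rnf141 at 15.6 ± 0.194 and Mrvi1 at 5.33 ± 0.341 FPKM. With 2 libraries of 1 group, no measure of likeness between the patterns of genes can be given, and none was used to name genes.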

How the data were processed

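RNA sequencing was done on 2 libraries of embryonic heart. Trizol was used for total RNA and the TruSeq RNA v2 kit for libraries, with a size selection, per the labels' protocols. The authors deposited 1 table per library with FPKM values per gene. The submitters' processing notes name GSNAP, Cufflinks, Cuffnorm and the builds mm9 and hg19, without versions. Gene positions printed from the tables are on mm9, and promoter windows come from RefSeq on GRCm38.p6. The sources used here do not give the annotation, the strand setting or the treatment of multiply mapped reads.

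Rows of 1 symbol were summed. Log2 values used a pseudocount of 1 FPKM, which understates differences of low genes. Of 180 listed symbols, 178 were found as written and 2 (Spi1, C5) through their gene ID. The members and lists were chosen with earlier results of these data known. Named genes are the 10 members, both genes of each of 24 pairs, the 4 highest and 3 lowest members of each of 20 lists, and the nearest protein-coding genes, of which a selection is printed and a few are not reported here. Actc1 and Nkx2-5 were added for the tissue check. Shared 50-base words were counted in GENCODE M21 transcripts, in the longest coding transcript of each gene. The 2-fold rule was tried on simulated counts with counting error alone at an assumed depth. Those counts lack the other spread of the real libraries, so they give no error rate for the rule here. Alternatives were other detection limits, pseudocounts, scalings, filters, rows per symbol and each library alone. The software was Python 3.11.15 with pandas 2.3.3, NumPy 2.4.6 and Matplotlib 3.10.9.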

Additional observations from a re-analysis of the deposited data

How the results depend on the processing

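No paired analysis was possible because the 2 libraries form 1 group. At a detection limit of 2 FPKM, 7 of the 10 members were detected, Cx3cr1, Mrc1 and Emr1 being lost, and at 0.5 FPKM all 10. The median rank of the members, 55.6% among all symbols above 0, was 45.1% among protein-coding symbols and 19.99% among genes whose mean reached 1 FPKM. With the limit taken from genes at 1 to 5 FPKM, chosen after seeing the data, 1 neighbouring pair of members differed instead of 3. That limit was 0.60 in place of 0.32. The median level of the members was between 3.27 and 3.58 FPKM in single libraries. Of 88 values of single pairs under alternatives, 85 kept their side of the limit, though ratios to genes under 1 FPKM grew with a pseudocount of 0.1 FPKM. The others were Cx3cr1 to Cx3cl1, past the limit in replicate 2 alone (-0.42), and Emr1 to Cd68, which fell inside it in replicate 1 alone (-0.30) and under the limit from low genes. Some ratios inside the limit changed sign in a single library. In replicate 1 alone, Csf1r to Kit was -0.01 and Tyrobp to Fcer1g 0.16. In replicate 2 alone, C1qb to C1qc was 0.03. Under both rescalings and a pseudocount of 0.1 FPKM, added after seeing the data, 9 of the 10 members were lower in replicate 2. No member was 2-fold apart under any filter or pseudocount tried. Absolute depth is unknown, which leaves counting error without an interval.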
